A study of Mus musculus with 19 samples.

Results

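Meis1, Meis2, Meis3, Pbx2, Pbx3, Pbx4, Pknox1 and Pknox2 are 8 genes of the TALE homeobox class whose proteins bind DNA as partners of Hox proteins. They were chosen by name and read through the 11 array probes whose transcript accession mapped to one of them, out of 20660 genes with a symbol on the array, and all 8 passed the filter on dim probes. The samples were fibroblast cultures from adult mice of 8 to 10 weeks, with 2 cultures each from skin and kidney and 3 each from tail, lung, liver, heart and gonad. Tissue pieces were digested with trypsin or collagenase and the cells that grew in dishes over 5 days in medium with 10% serum were taken for RNA, so the fibroblast label rests on that outgrowth and not on a sort. The labels name no treatment, genotype, strain or sex, and do not tell to what extent cultures of one organ share a mouse. The p-values therefore measure only the spread among these cultures, which may be technical. The question was how the level of each gene differed between fibroblasts of different organs.

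TALE proteins carry a homeodomain with 3 extra residues between its first helices. Pbx proteins bind DNA together with Hox proteins, and Meis and Pknox proteins bind Pbx proteins at a separate surface, which favours their entry into the nucleus and forms complexes with or without a Hox protein. Meis and Pknox proteins compete for Pbx, and the complexes read positional Hox codes in limb, heart and body axis development.

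RefSeq promoter windows (build GRCm38.p6, 250 bases before to 50 after the annotated start) were held for 5 of the 8 genes: Meis1, Meis2, Meis3, Pbx2 and Pbx4. The windows of Meis1, at chr11:19018920-19019219 on the minus strand, and Meis2, at chr2:116064570-116064869 on the minus strand, are printed because the levels of these genes moved together across organs. Capitals mark CpG dinucleotides, with 15 in Meis1 and 13 in Meis2 against a median of 7 over all 32851 promoters.
Meis1: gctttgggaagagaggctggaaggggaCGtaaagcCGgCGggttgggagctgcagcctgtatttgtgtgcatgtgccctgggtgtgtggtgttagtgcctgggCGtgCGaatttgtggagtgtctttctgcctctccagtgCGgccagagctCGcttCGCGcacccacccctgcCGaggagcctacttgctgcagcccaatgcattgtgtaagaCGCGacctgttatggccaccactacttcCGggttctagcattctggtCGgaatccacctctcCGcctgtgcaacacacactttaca
Meis2: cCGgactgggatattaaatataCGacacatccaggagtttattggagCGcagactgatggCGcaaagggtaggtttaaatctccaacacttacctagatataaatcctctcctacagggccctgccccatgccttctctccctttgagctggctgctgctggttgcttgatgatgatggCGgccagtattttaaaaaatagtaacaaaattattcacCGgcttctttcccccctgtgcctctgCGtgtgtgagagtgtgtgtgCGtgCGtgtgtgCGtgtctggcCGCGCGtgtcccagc
Both windows were searched on both strands, as were those of Meis3, Pbx2 and Pbx4, for TGACAG, a core bound by Meis and Pknox proteins, TGATNNAT, a Hox and Pbx composite, and TGATTGAC, a Pbx composite with Meis or Pknox. These letters are held by 19.2%, 8.85% and 0.77% of all promoters of the same length, and none of the 5 windows holds any of them. The window of Pbx2 is 76% G and C, that of Meis2 51%, and the median over all promoters is 52.7%.

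Levels are log2 of the background-subtracted array signal relative to the 75th percentile of the same array, so 0 is that percentile and a difference of 1 is a doubling. Lung replicate 2 had no scanner file here, which left 18 arrays. On 5 of them (gonad 3, heart 1, kidney 1, kidney 2 and tail 2) the mean net signal of the negative control spots lay outside the scanner software's own limits, and 84.9 to 96.6% of probes were well above background, against 51.2 to 77.2% on the other 13 arrays. On those 5 arrays the range between the 10th and 90th percentile of genes was 4.43 to 8.12 on the log2 scale, against 9.24 to 11.7 on the other 13. By correlation over all genes, 15 of the 18 arrays had an array of the same organ as nearest neighbour, the exceptions being gonad 3, heart 1 and liver 3. Both kidney arrays are among the 5, so results are given over all 18 arrays and over the 13 without kidney. All 11 probes were well above background on all 18 arrays. Of 10 general fibroblast markers, 10 were well above background on every array except kidney 2, where 9 were. Fewer cells of a type and less RNA per cell cannot be told apart in these bulk samples.

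Over all 18 arrays, 6 of the 8 genes differed among the 7 organs by limma's moderated F test at an adjusted p under 0.05, against 32.3% of the 20207 genes tested. The other two, Pbx3 and Pbx4, had adjusted p of 0.069 and 0.093 by the same limma test. Without the 5 arrays, 6 of 8 passed, against 53.1% of 18147 genes, and here Meis3 (adjusted p = 0.082) and Pbx2 (adjusted p = 0.54) did not pass in limma. A gene was called higher or lower in an organ at an adjusted p under 0.05 with a log2 difference of at least 1 from the mean of the other organs. On the 13 arrays, 6 of 48 such tests of the cofactors were called, against 15% of the tests over all genes, and they fell on Meis1, Pbx4 and Pknox2. The plot of levels by organ shows all 8 genes array by array.

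**Figure D1:**
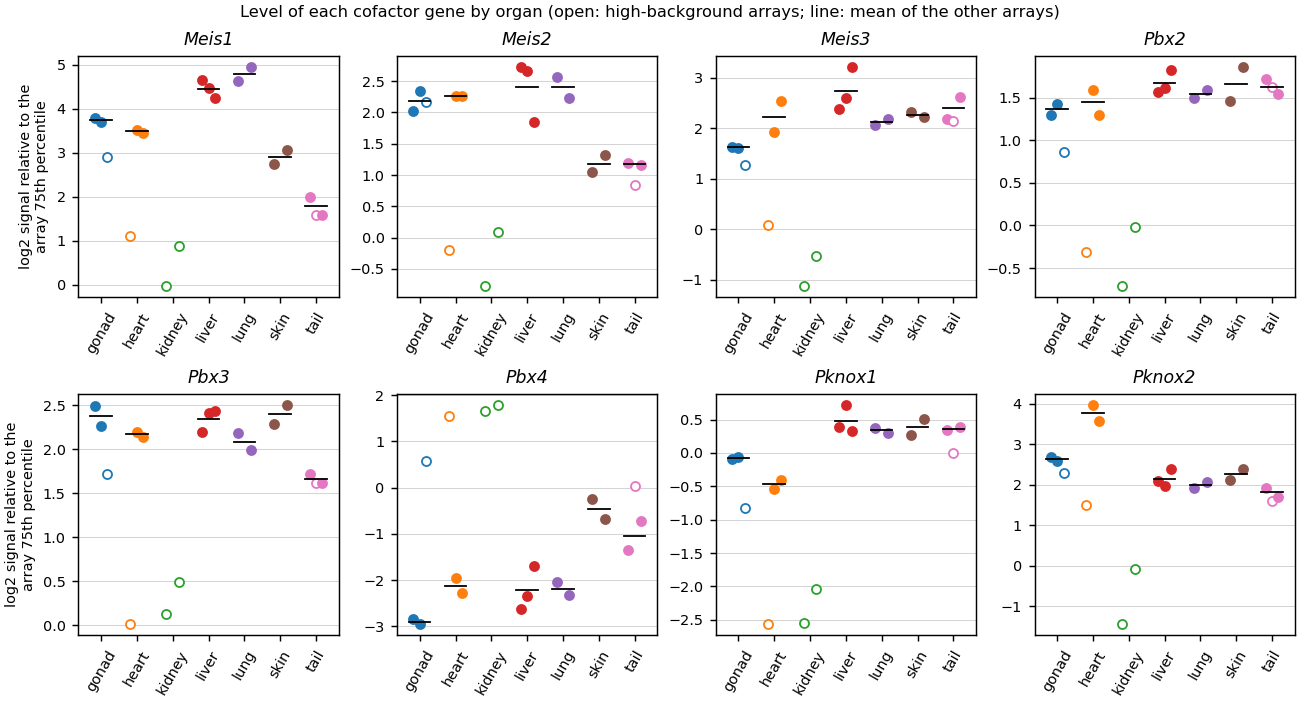
Level of each gene on each of the 18 arrays (y axis, log2 signal relative to the array's 75th percentile), by organ on the x axis. Open circles are the 5 high-background arrays, filled circles the other 13, and lines the means of the filled circles. Meis1 runs down to 1.59 in tail 3 among the filled circles with lung 3 at 4.95, and Pknox2 stands higher in hearts 2 and 3 than in every other array.

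Meis1, which mice need for their blood stem cells and which brings cardiac muscle cells out of the cell cycle, was high in lung and liver fibroblasts and low in tail. Its log2 levels were 4.64 and 4.95 in lung, 4.66, 4.48 and 4.25 in liver, 3.79, 3.70 and 2.91 in gonad, 1.12, 3.52 and 3.46 in heart, 2.76 and 3.06 in skin, 2.01, 1.60 and 1.59 in tail, and -0.03 and 0.89 in kidney. Lung and liver lay above all other organs, heart 1 lay far from hearts 2 and 3, and no kidney array reached any array of another organ. That non-overlap on the low side in kidney was shared by 16.1% of all genes. The order of the means over the 13 arrays was lung, liver, gonad, heart, skin and tail. Skin exceeded tail, the next in that order, by 1.11 ± 0.21 on the log2 scale (SE; adjusted p = 0.0064 in limma), and no other neighbours of Meis1 were called. Between the ends of the order, lung exceeded tail by 3.00 ± 0.21 (7.97-fold) and liver exceeded tail by 2.66 ± 0.19 (6.34-fold). For the 8 genes together 4 of 40 neighbouring pairs were called, where 17.1% of tests over all genes and all organ pairs were. With kidney and all 18 arrays 2 of 48 were called, where 17.2% of all pairs were, and both were steps down to kidney, in Meis3 from gonad and in Pknox2 from tail. Neighbours are a gene's closest means by choice, so these counts cannot be read against the shares over all pairs.

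Meis1 over the 13 arrays was 1.51 ± 0.16 higher on the log2 scale in lung than in the mean of the other 5 organs (SE; 2.85-fold, adjusted p = 0.0022 in limma), a direction called for 1.55% of all genes. In liver it was 1.12 ± 0.14 higher than in the others (2.17-fold, adjusted p = 0.0029), a direction called for 2.62% of genes. In tail it was 2.08 ± 0.16 lower, with a log2 difference of -2.08 (4.23-fold, adjusted p = 7.1e-05 in limma), and 5.66% of genes were called lower there. Both tail arrays lay below every other of the 13 arrays, as did those of 10.2% of genes. Without lung replicate 3 the lung difference was 1.36 with an adjusted p of 0.053 in limma. Over all 18 arrays the differences had the same directions, 2.18 in lung, 1.79 in liver and -1.40 in tail, with adjusted p of 0.084, 0.051 and 0.074 in limma, so none was called. Outside kidney none of the 8 genes was called in a single organ over the 18 arrays by limma, where the share of all genes called was 2.84% in gonad, 3.69% in heart, 1.68% in liver, 0.505% in lung, 1.37% in skin and 6.17% in tail. At an unadjusted p under 0.05 there were 4 of the 8 in liver, 2 in heart, 1 in lung, 1 in tail and 0 in gonad and skin. Without heart replicate 1 the Meis1 differences in lung, liver and tail were all called over the remaining arrays, at 2.05, 1.66 and -1.53. In that fit 81.2% of all genes passed limma's F test, against 32.3% over all 18 arrays.

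Without kidney and the other high-background arrays, Meis1 was lower at the body surface than in internal organs. The mean of skin and tail over the 13 arrays was lower than that of gonad, heart, liver and lung, with a log2 difference of -1.77 ± 0.13 (3.41-fold, adjusted p = 3.3e-05 in limma), and 3.98% of genes were called lower there. All 4 surface arrays, at 1.59 to 3.06, lay below all 9 internal arrays, at 3.46 to 4.95, as they did for 2.24% of genes. Both kidney arrays and heart 1, at -0.03, 0.89 and 1.12, lay below every skin and tail array, and over all 18 arrays the surface difference was -0.85 ± 0.36 and was not called (adjusted p = 0.25 in limma). Arrays were run on 3 slides, and within slides 1, 2 and 3 liver exceeded the mean of the other arrays by 1.72, 1.37 and 2.49. Lung exceeded it by 1.70 and 2.21 on slides 1 and 2, and tail differed from it by -1.37, -1.82 and -1.12 on the 3 slides. These means held high-background arrays, among them kidney at 0.89 on slide 1 and -0.03 on slide 3, and heart 1 at 1.12 on slide 2. Such low values enlarge the liver and lung excess and shrink the tail deficit. With slide as a block over the 13 arrays the differences were 1.48 in lung, 1.13 in liver and -2.04 in tail, all still called for Meis1. In the deposited value table, which holds lung replicate 2, Meis1 stood at 4.63 there, against 4.59 and 4.89 in lungs 1 and 3 from the same table. That table holds raw signal without background subtraction, so its levels compare only with each other. There lung 2 lay at 2.20 for Meis2, 2.57 for Meis3, 1.59 for Pbx2, 1.92 for Pbx3, -1.37 for Pbx4, 0.64 for Pknox1 and 1.74 for Pknox2. For Meis2, Meis3, Pbx2 and Pbx3 lungs 1 and 3 lay there at 2.34 and 2.04, 2.12 and 2.29, 1.52 and 1.58, and 2.02 and 1.88. For Pbx4, Pknox1 and Pknox2 they lay at -1.77 and -1.76, 0.53 and 0.50, and 1.88 and 2.02.

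Markers of some other cell types were also called in these organs over the 13 arrays, not all in step with Meis1. Of 5 mesothelial markers (genes of the serosal lining of organs), 5 were called higher in lung, 4 in liver and 4 in gonad. In skin and tail 5 of 5 were called lower than in the internal organs. Their summed level, in multiples of the array's 75th percentile, was 31.2 to 70.6 in lung, 14.9 to 95.3 in liver and 30.7 to 34.5 in gonad, against 0.776 to 0.836 in heart, 0.215 to 0.244 in skin and 0.262 to 0.267 in tail. In hearts 2 and 3 Meis1 was at 3.52 and 3.46 with that low sum. Of 5 smooth muscle markers 3 each were called higher in lung, liver and gonad, and Meis1 was not called in gonad. Of 6 endothelial markers 4 were called higher in liver, 2 in gonad and 0 in lung. Of 6 epithelial markers 2 were called higher in lung and 1 in liver. At the surface, where Meis1 was lower, 4 epithelial markers were called higher and 1 lower, against 24.7% and 3.98% of all genes. The level of Meis1 also moved with the share of probes well above background, with a correlation of -0.83 over the 18 arrays and -0.61 over the 13. The part of these cells and of background in the Meis1 differences was not tested.

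Meis2, a regulator of cranial and cardiac neural crest, had log2 levels of 1.04 and 1.33 in skin and 1.19, 0.84 and 1.16 in tail. In the internal organs they were 2.03, 2.35 and 2.17 in gonad, -0.20, 2.26 and 2.27 in heart, 2.72, 2.67 and 1.84 in liver, 2.56 and 2.23 in lung, and -0.78 and 0.10 in kidney. Skin and tail lay together, below every internal array but heart 1 and the kidneys. Over the 13 arrays the mean of skin and tail was lower than that of the 4 internal organs, with a log2 difference of -1.14 ± 0.18 (2.20-fold, adjusted p = 9.4e-04 in limma). In that comparison 3.98% of all genes were called lower. The 4 surface arrays, at 1.04 to 1.33, lay below the 9 internal ones, at 1.84 to 2.72, as they did for 2.24% of genes. The 5 mesothelial markers were all called lower at the surface too, with a median log2 difference of -5.86. Their summed level was also low in hearts 2 and 3, at 0.776 and 0.836, where Meis2 was at 2.26 and 2.27. The level of Meis2 had a correlation of -0.81 with the share of probes well above background over the 18 arrays and of -0.70 over the 13. The part of mesothelial cells and of background in the Meis2 difference was not tested. Taken singly, skin (-0.90 ± 0.22) and tail (-0.92 ± 0.22) passed limma's test at an adjusted p of 0.013 each but missed a log2 difference of 1. The 4 internal organs spanned only 2.19 to 2.41 in their means, with no neighbours among them called, and skin, next in order, was below gonad by a called difference, gonad minus skin, of 1.00 ± 0.29 (adjusted p = 0.022 in limma). Over all 18 arrays, with kidney among the internal organs, the surface difference of Meis2 was -0.50 ± 0.37 (adjusted p = 0.44 in limma), and none of the 8 genes was called in that comparison, where 4.16% of all genes were, while 4 of the 8 had an unadjusted p under 0.05.

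Meis1 and Meis2 moved together, with a Pearson correlation of 0.93 over the 18 arrays and 0.84 over the 13. These are descriptions over arrays that share organ and background: over the 18 arrays all 28 pairs of the cofactors had a correlation beyond 0.5 in size, and over the 13 arrays 6 pairs did.

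Meis3, known from hindbrain patterning and from the survival of pancreatic beta cells, was called in no organ but kidney and its probes disagreed. By the brightest of its 3 probes the log2 levels were 2.38, 2.61 and 3.21 in liver and 1.64, 1.61 and 1.28 in gonad. They were 0.07, 1.92 and 2.54 in heart, 2.07 and 2.18 in lung, 2.31 and 2.22 in skin, 2.18, 2.15 and 2.61 in tail, and -1.13 and -0.53 in kidney. Both gonad arrays among the 13 lay below the other 11, as for 12.7% of genes, and gonad was below the mean of the others by a log2 difference of -0.72 ± 0.23 (adjusted p = 0.041 in limma), short of 1. The second probe differed by 0.01 ± 0.18 in the same comparison and the third by -0.36 ± 0.24, with adjusted p of 0.97 and 0.29 in limma. In kidney over the 18 arrays the first and second probes were lower, by -2.91 ± 0.47 and -1.58 ± 0.38, and the third higher, by 1.58 ± 0.45, all with adjusted p under 0.05 in limma (0.0012, 0.0039 and 0.0088).

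Among the Pbx genes, Pbx2, which is dispensable on its own in mice, was nearly level. Outside the high-background arrays its log2 levels were 1.30 to 1.86 in all 6 organs, with means of 1.67 ± 0.13 in liver (SD, n = 3), 1.66 ± 0.29 in skin, 1.63 ± 0.12 in tail, 1.55 ± 0.06 in lung, 1.45 ± 0.21 in heart and 1.36 ± 0.10 in gonad (SD, n = 2 each). In gonad it differed from the other organs by -0.23 ± 0.14, the lowest of its 6 values over the 13 arrays. It lay at 0.86 in gonad 3, -0.32 in heart 1, -0.71 and -0.01 in kidney and 1.62 in tail 2.

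Pbx3, which is needed for breathing control at birth in mice, was below the other organs in tail over the 13 arrays, by less than the size needed for a call. Its log2 levels were 1.72, 1.61 and 1.61 in tail, against 2.49, 2.27 and 1.71 in gonad, 0.01, 2.20 and 2.14 in heart, 2.19, 2.42 and 2.44 in liver, 2.18 and 2.00 in lung, 2.29 and 2.50 in skin, and 0.13 and 0.49 in kidney. The tail arrays lay close to each other. Tails 1 and 3 lay below the other 11 of the 13 arrays, as for 10.2% of genes. Over those arrays tail was lower than the mean of the other organs by -0.61 ± 0.12 (adjusted p = 0.0064 in limma), short of a log2 difference of 1. Over all 18 arrays the tail difference was -0.14 ± 0.38 (adjusted p = 0.89 in limma), and both kidney arrays and heart 1 lay below tail. The F test of Pbx3 over the 13 arrays had an adjusted p of 0.024 in limma, and of 0.081 without tail 1, 0.130 without tail 3 and 0.073 with slide as a block.

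Pbx4, best known in mice from the testis, stood highest on the arrays with high background. Its log2 levels were -0.26 and -0.68 in skin and -1.36, 0.04 and -0.72 in tail, against -2.85, -2.96 and 0.57 in gonad, 1.55, -1.96 and -2.28 in heart, -2.62, -2.34 and -1.69 in liver, -2.05 and -2.33 in lung, and 1.65 and 1.78 in kidney. Among the 13 arrays it was higher in skin by 1.63 ± 0.25 (adjusted p = 0.0021 in limma), where 20.8% of genes were called higher, and lower in gonad by a log2 difference of -1.30 ± 0.25 (adjusted p = 0.0058), where 18.8% were called lower. Without gonad 1 or gonad 2 the gonad difference was no longer called (adjusted p = 0.051 and 0.061 in limma). Skin and tail together were higher by 1.60 ± 0.20 (adjusted p = 3.3e-04 in limma), where 24.7% of genes were called higher. Both skin arrays lay above all others of the 13, as for 11.7% of genes, and the 4 surface arrays lay above all internal ones, as for 15.5%. Beside these shares 1 gene of 8 in each comparison is no result about the cofactors. The level of Pbx4 moved with the share of probes well above background, with a correlation of 0.95 over the 18 arrays and 0.81 over the 13. With normexp and quantile normalization the surface difference was 0.97 and that in gonad -0.65, both short of 1. The part of background in the Pbx4 differences was not tested.

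**Figure D2:**
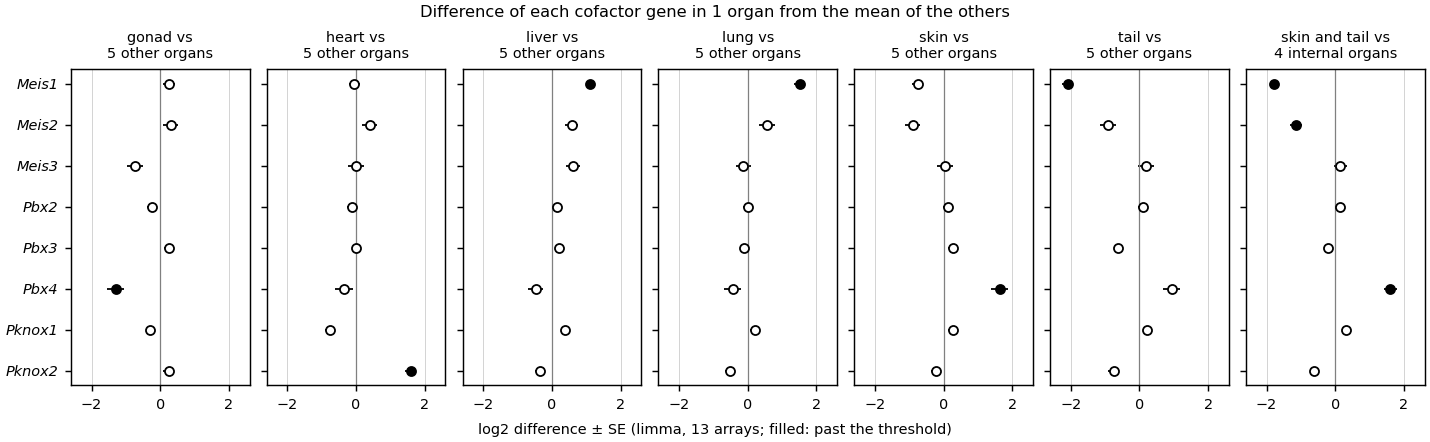
Difference of each gene between 1 organ and the mean of the other 5 (first 6 panels), and between skin and tail and the 4 internal organs (last panel), on the x axis in log2 units with the standard error as bars, over the 13 arrays. Filled points were called at an adjusted p under 0.05 and a difference of at least 1, and Meis1 is filled in liver, lung, tail and surface, Meis2 in surface, Pbx4 in gonad, skin and surface, and Pknox2 in heart.

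Of the Pknox genes, also called Prep, Pknox2 stood out in heart. Its log2 levels were 1.49, 3.96 and 3.56 in heart, against 2.69, 2.59 and 2.29 in gonad, 2.09, 1.96 and 2.38 in liver, 1.93 and 2.08 in lung, 2.13 and 2.38 in skin, 1.92, 1.59 and 1.71 in tail, and -1.44 and -0.08 in kidney. Hearts 2 and 3 lay above every other array, and the high-background heart 1 lay below the arrays of gonad, liver, lung, skin and tail. Over the 13 arrays heart was higher than the mean of the other 5 organs by 1.59 ± 0.16 on the log2 scale (SE; 3.02-fold, adjusted p = 2.4e-04 in limma), and 3.77% of all genes were called higher there. Both heart arrays lay above the other 11, as for 5.57% of genes. Heart exceeded gonad, next in order, by 1.13 ± 0.20 (adjusted p = 0.0055 in limma). Among gonad, skin, liver, lung and tail, with means of 2.64, 2.25, 2.14, 2.01 and 1.81, no neighbours were called. Heart exceeded tail by 1.95 ± 0.20 (3.87-fold). Over the 13 arrays both tail values, 1.92 and 1.71, lay below all others, as for 10.2% of genes, the nearest being lung 1 at 1.93.

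Across all 18 arrays the heart difference of Pknox2 was 1.36 ± 0.42 and was not called (adjusted p = 0.12 in limma), and without heart 1 it was 2.11 (adjusted p = 4.0e-04). Once heart 1 was left out, 81.2% of all genes passed limma's F test, against 32.3% over the 18 arrays. Within slides 1 and 3 heart exceeded the mean of the other arrays by 2.18 and 2.44, and on slide 2, which holds heart 1, the difference was -0.71. The other arrays on slides 1 and 3 included kidney, at -0.08 and -1.44, which enlarges the heart excess there. With slide as a block over the 13 arrays Pknox2 was 1.73 higher in heart and still called. None of 4 cardiomyocyte markers was called in heart over the 13 arrays, and 4 of 10 fibroblast markers were called higher there. Of 5 smooth muscle markers 3 were called lower in heart, with a list median of -4.62, of 6 epithelial markers 2 were lower, and of 6 endothelial markers 1 was higher and 2 lower. The level of Pknox2 had a correlation of -0.72 with the share of probes well above background over the 18 arrays and -0.57 over the 13. The part of these cells and of background in the Pknox2 difference was not tested.

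Pknox1, which mice need for early embryonic and blood development, ran the other way in heart. By its brighter probe the log2 levels were -2.57, -0.54 and -0.40 in heart, against -0.09, -0.06 and -0.83 in gonad, 0.38, 0.72 and 0.33 in liver, 0.38 and 0.30 in lung, 0.27 and 0.50 in skin, 0.34, 0.00 and 0.39 in tail, and -2.55 and -2.04 in kidney. Hearts 2 and 3 lay below the other 11 of the 13 arrays, as for 5.15% of genes. Heart was lower than the other organs over the 13 arrays by -0.77 ± 0.13 with the brighter probe and by -0.93 ± 0.14 with the second probe (adjusted p = 0.0044 and 0.0026 in limma), both short of 1. Among the 13 arrays Pknox1 and Pknox2 had a Pearson correlation of -0.90, and over all 18 it was 0.58. The points share organ and array background, and the heart arrays sit at one end.

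**Figure D3:**
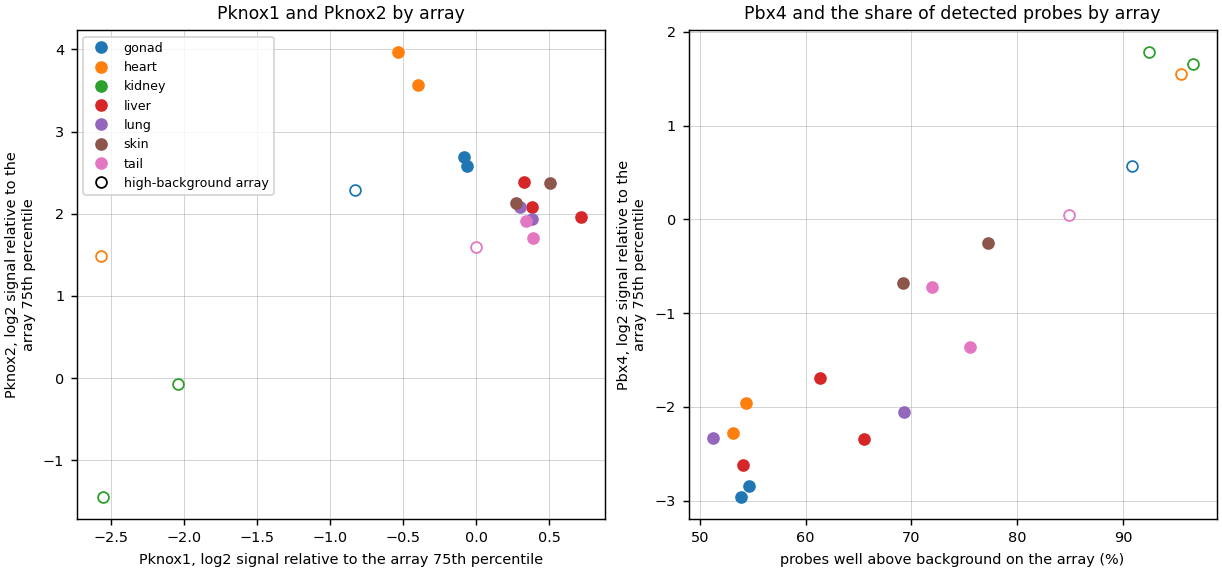
Left, Pknox2 against Pknox1 on each of the 18 arrays, both as log2 signal relative to the array's 75th percentile. Right, Pbx4 in the same unit against the percentage of probes well above background. Open circles are the high-background arrays. Hearts 2 and 3 lie at high Pknox2 and low Pknox1 among the filled circles (-0.90 over 13 arrays), and Pbx4 climbs with the share of detected probes (0.95 over 18 arrays).

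Kidney was the organ in which all 8 genes, read by the probe used, were called over the 18 arrays, with 7 lower and Pbx4 higher. There 76.5% of all genes were called, 41.4% lower and 35.1% higher, so the count says little about the cofactors. The second Pknox1 probe differed by -0.74 ± 0.29 in kidney (adjusted p = 0.034 in limma), short of 1, and was not called. The log2 differences from the mean of the other 6 organs were -3.04 ± 0.50 for Pknox2, -2.92 ± 0.50 for Meis1, -2.91 ± 0.47 for Meis3, -2.29 ± 0.45 for Pknox1, -2.12 ± 0.51 for Meis2, -1.79 ± 0.40 for Pbx2, -1.70 ± 0.45 for Pbx3 and 3.08 ± 0.91 for Pbx4. In both kidney arrays Meis1, Meis3 and Pknox2 lay below every array of another organ, as did 16.1% of all genes. Pbx4 lay above every such array, as did 10.1% of genes. Kidney and high background cannot be told apart, since both kidney arrays are high-background arrays. With high background as a term in the limma fit 4 of the 8 were called, against 14.2% of genes: Pknox2 at -2.25, Meis3 at -2.14, Meis1 at -1.97 and Pknox1 at -1.39. Since both kidney arrays carry that term, its size comes only from gonad 3, heart 1 and tail 2. Their range between the 10th and 90th percentile was 7.17, 5.24 and 8.12, against 4.43 and 5.81 in kidneys 1 and 2. The term therefore cannot separate kidney from its background. Without kidney replicate 1 limma called none of the 8, with all 8 at an unadjusted p under 0.05, and 2% of all genes.

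**Figure D4:**
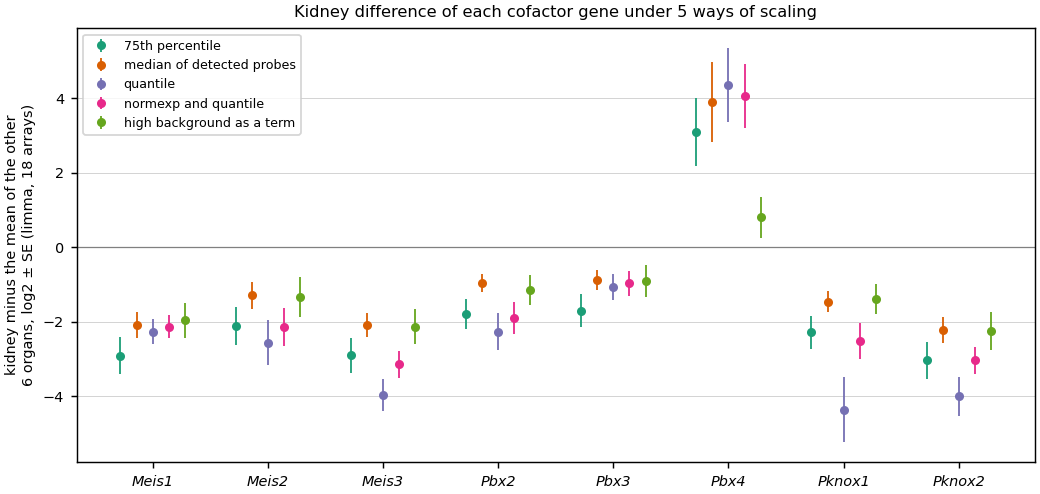
Log2 difference between kidney and the mean of the other 6 organs for each gene (y axis, bars are standard errors in limma over 18 arrays), under 5 ways of scaling shown by colour. The 7 genes below 0 and Pbx4 above 0 keep their sign in all 5, and Pbx4 shrinks to 0.80 with high background as a term.

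In kidney the markers of other cells also moved. Of 10 fibroblast markers 9 were called lower, with a summed level of 112 and 225 in kidneys 1 and 2, against 311 in heart 1 and 923 to 1691 on the other 15 arrays. Of 6 epithelial markers 6 were called higher, where 35.1% of all genes were higher and 41.4% lower. Of 5 kidney tubule markers 4 were called higher, and of 5 smooth muscle markers 5 were called lower. Markers of cells foreign to kidney were called higher too, 3 of 3 for hepatocytes, 2 of 4 for cardiomyocytes and 2 of 5 for keratinocytes, with 2 keratinocyte markers lower. The summed level of the hepatocyte markers was 1.73 and 1.58 in kidneys 1 and 2, against 1.97, 0.988 and 0.657 in the other high-background arrays, heart 1, gonad 3 and tail 2, and 0.0312 to 0.414 on the other 13. The part of these cells and of background in the kidney values was not tested.

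The Hox genes, partners of these proteins, were read over the same 13 arrays, where 11 of 11 measured in groups 1 to 4, 11 of 11 in groups 5 to 8 and 13 of 14 in groups 9 to 13 passed limma's F test. The share over all genes was 53.1%. Of 11 Hox genes of groups 1 to 4 measured, 6 were called higher in lung and 6 in liver, where 1.55% and 2.62% of genes were, and 9 lower in heart, where 5.86% of genes were called lower. Hoxa3, for example, was 3.52 higher in lung, 3.24 higher in liver and -4.54 in heart on the log2 scale, while Meis1 differed by -0.05 ± 0.16 in heart. Of 11 Hox genes of groups 5 to 8, 9 were called lower in heart, with Hoxb6 at -8.10. The median log2 difference in heart was -2.86 over the first list and -5.53 over the second, against -0.06 over all genes. Of 14 genes of groups 9 to 13, 11 were called higher in skin and tail than in the internal organs, where 24.7% of all genes were called higher, with Hoxc13 at 4.49, while Meis1 and Meis2 were lower. Of the 9 other TALE genes, 6 were called higher at the surface and none lower, against 24.7% and 3.98% of all genes, with a median log2 difference of 2.38 against 0.13 over all genes. Among them Irx1 and Irx3, Iroquois patterning factors, differed by 7.75 and 4.11.

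The genes whose levels were most like a cofactor's were named by correlation, as a description. Over the 18 arrays these were Stbd1, Cacnb3 and Pfkfb3 for Meis1 (0.96 each), Dusp3, Tpcn1 and Klhl13 for Meis2 (0.96 each), and Itgb5, Lamc1 and Dpysl2 for Pknox2 (0.96, 0.95 and 0.95). They were Herpud1, Atf5 and Rgs10 for Meis3, Hdac10, Dpf2 and Smad4 for Pbx2, and Fam98c, Ryk and Steap2 for Pknox1, with correlations of 0.97 to 0.99. Ranked over 13 arrays Tgm2, Peg3 and Miga1 led for Meis1 (0.95, 0.95 and 0.94), Nr2f1, Arhgap9 and Klhl13 for Meis2 (0.96, 0.92 and 0.92), and Peg10, Cpd and Cst6 for Pknox2 (0.94 each). The arrays share organ and background, and for these 6 genes the leading names differed between the 18 and the 13 arrays except for Klhl13 for Meis2 and Hdac10 for Pbx2.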

How the data were processed

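Cy3-labelled RNA of each culture was hybridised to 1-colour Agilent arrays, and the deposited scanner files hold spot intensity values processed with Agilent Feature Extraction 11.0.1.1, per the submitters' processing notes and the file headers. The deposited value table holds a linear intensity per spot, equal to the raw median signal of the scanner files on all 18 arrays compared, and gave lung replicate 2. The scanner's processed signal is background-subtracted, per the file headers. From it log2 was taken less each array's 75th percentile, spots called outliers by the scanner were set missing (2023 probe values), and 3671 control spots left out. Probes needed at least 2 arrays well above background, and a gene took its brightest complete probe. Accessions were named through RefSeq tables (27235 of 55681 probes). limma 3.58.1 (R 4.3.3) fitted organ means over all genes, with Benjamini-Hochberg adjustment within each comparison, and the same was done without the 5 high-background arrays. Calls need an adjusted p under 0.05 and, except in the F test, a log2 difference of at least 1. The fits were tested on simulated data in which each gene had the same spread on every array. Those data held no high-background arrays, so the test does not cover such arrays. The number of arrays limits the precision. The members and gene lists, and the rule for named genes (3 most correlated genes per member past the F test, 4 genes per list by the lowest F test p), were chosen with earlier results of these data known. Alternatives were other background correction and scaling, probe filters, the mean of probes, slide and replicate blocks, the value table, trend and robust variance, and leaving out each array. The genes ranked over the 13 arrays, the tests of the other Meis3 and Pknox1 probes, and the alternatives to the 13-array results were chosen after seeing the data. Probe sequences and proteins were not used here.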

Additional observations from a re-analysis of the deposited data

How the results depend on the processing

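No called value of the 8 genes, read by the probe used, changed sign under the alternatives run, but the third Meis3 probe gave 1.58 in kidney, where the probe used gave -2.91. The second Pknox1 probe gave -0.74 in kidney, short of a call. Over the 18 arrays the number of calls of a gene higher in 1 organ, 1 as reported, was 4 with quantile normalization, with normexp and quantile normalization, with median scaling, with probes well above background on all arrays, with the value table of 19 samples, and without the high-background arrays with either normalization. It was 3 with high background as a term and with trend and robust variance, and 0 to 5 on leaving out 1 array. Calls lower, 7, was 2 without the high-background arrays, 1 when normexp and quantile normalization were added, and 0 to 8 on leaving out 1 array. Genes past the F test, 6, came to 1 without kidney replicate 1, 2 without kidney replicate 2, and up to 8. The share of all genes past the F test moved too, from 32.3% as reported to 81.2% without heart replicate 1. In skin and tail, 0 were called, against 1 higher with quantile normalization and without the high-background arrays. There 1 was called lower with median scaling and with high background as a term, 2 without the high-background arrays with either normalization, and 0 to 1 on leaving out 1 array. Neighbouring pairs, 2, came to 4 with normexp and quantile, with quantile, with the value table and without the high-background arrays, 5 with probes well above background on all arrays, 1 with the mean of probes, and 0 to 9 on leaving out 1 array.

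Over the 13 arrays, with alternatives chosen after seeing the data, calls lower in 1 organ, 2, came to 1 with quantile and with normexp and quantile normalization, 9 with no minimum difference, and 1 to 2 on leaving out 1 array. Calls higher, 4, ranged from 3 to 5 and genes past the F test, 6, from 5 to 6 on leaving out 1 array. Surface members called higher, 1, were 0 with normexp and quantile normalization and 2 with no minimum difference. Neighbouring pairs, 4, were 2 with both normalizations and with the value table, and 2 to 4 on leaving out 1 array. The Pbx4 difference in gonad was -1.35 without gonad 1 and -1.24 without gonad 2, with adjusted p of 0.051 and 0.061 in limma. The cause was not tested.

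Same-numbered samples had correlations of -0.85 to 0.78 in their deviations from the organ mean (median -0.04, 46 pairs). For 92 pairs of different numbers the correlations were -0.84 to 0.90 (median 0.02). Given so wide a range in both sets, this comparison cannot tell whether same-numbered cultures share a mouse. With replicate number as a block, 4 of the 8 passed the F test over 18 arrays, 7 were called lower and 1 higher, and 6 passed over the 13. Limits are the 2 or 3 arrays per organ, the high background of both kidney arrays and heart 1, and the disagreement of the Meis3 probes. The smaller kidney difference of the second Pknox1 probe is another.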

Other observations

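Retinoic acid raises Meis genes in embryonal carcinoma cells, and its pathway genes were read over the same 13 arrays. Of 19 genes of retinoic acid synthesis, binding, reception and breakdown, 11 differed among organs by limma's F test at an adjusted p under 0.05, against 53.1% of all genes. In skin and tail, against the internal organs, 3 were called higher and 3 lower, against 24.7% and 3.98% of all genes. Aldh1a1 and Aldh1a2, enzymes that make retinoic acid, differed there by -4.91 and -4.22 on the log2 scale. Crabp1, which binds retinoic acid in the cytoplasm, differed by 5.17. In lung, where Meis1 was called higher, 1 of the 19 was called, Aldh1a2 at 2.62, and 1.55% of all genes were called higher. In liver Aldh1a2 differed by 0.15. The part of retinoic acid or of other cell types in the Meis1 differences was not tested.

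Of 13 reported partners and targets of Meis and Pbx proteins, 9 were measured over the 13 arrays and 6 passed limma's F test, against 53.1% of all genes. Hand2, a heart and limb factor, was called higher in liver at 3.54 and in heart at 3.30 and lower in lung at -3.59. Pf4, a chemokine of platelets and macrophages, was called higher in heart at 6.64. The cell cycle inhibitors Cdkn2a and Cdkn2b were called lower in heart, at -1.92 and -1.90, and higher in tail, at 1.92 and 2.17.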
